A study of Mus musculus with 21 samples.

Results

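Transcripts of 42 genes that drive DNA replication and cell division were followed in the cecum (the blind sac where small and large intestine meet) of mice fed broccoli powder. The 42 genes were chosen by symbol for their known roles, not by a measured threshold, out of 25361 genes in the deposited count table, and all 42 passed the filter on low counts, as did 15652 genes in all. They form 3 groups that are kept apart here: 19 genes of DNA replication and S phase entry, 21 genes of G2 and mitosis, and the 2 D-type cyclins Ccnd1 and Ccnd2. The mice were C57BL/6, an inbred laboratory strain. From 3 weeks of age they ate the Total Western Diet, a rodent diet modelled on human Western intake, for 6 weeks, and then for 3 further weeks that diet with 0%, 0.5%, 1.0% or 2.5% broccoli powder, so that every group, controls included, carried the Western diet. There were 6 libraries at 0%, which serve as controls, and 5 at each other dose, 1 library per mouse. Sex and cage are not named in the labels used here, so a cage shared within a diet cannot be told apart from the diet.

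A dividing cell copies its DNA in S phase and parts the copies in mitosis. In late mitosis and early G1 the loading factors Cdc6 and Cdt1 place the ring-shaped Mcm2 to Mcm7 helicase on DNA, cyclin E with Cdk2 helps to start copying, and E2F factors turn on most of the genes of this step. Later, cyclins A and B with Cdk1, the kinases Plk1, Aurka and Aurkb and many kinesins carry the cell through mitosis. These genes are turned on together by the MuvB and Foxm1 complexes through a promoter element called CHR. Many such promoters also carry an element called CCAAT. In the large intestine, dividing cells lie mainly in the lower part of the crypts, beneath cells that no longer divide.

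Letters of the E2F, CHR and CCAAT elements were looked up in promoter windows from RefSeq (GRCm38.p6). The windows run from 250 bases before to 50 bases after a transcription start. A window was found for 16 of 19 replication genes, for 16 of 21 mitosis genes and for neither D-type cyclin. The E2F letters searched were TTTCCCGC, TTTGGCGC, TTCCCGCC and TTGGCGCC, the CHR letters TTTGAA and TTCGAA, and the third element CCAAT, each on both strands. The E2F words overlap one another, so neighbouring matches can be 1 stretch. E2F letters stood in 9 of 16 replication genes (56.2%) and in 2 of 16 mitosis genes (12.5%), against 4.34% of all 27025 genes with a window. CHR letters stood in 14 of 16 mitosis genes (87.5%) and in 2 of 16 replication genes (12.5%), against 21.7% of all genes. All 14 of those mitosis genes also held CCAAT, against 8.61% of all genes that held both, and CCAAT alone stood in 15 of 16 mitosis genes, in 10 of 16 replication genes and in 41.1% of all genes. These are matches of letters, not measured binding, and a window with no match says nothing about the factor.

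The 250 bases before the start are shown for 5 genes that stand for the 2 groups, chosen among the genes described below, with E2F letters in capitals for the replication genes and CHR and CCAAT letters in capitals for the mitosis genes. Mcm6 lies at chr1:128359706-128359955 on the minus strand, with E2F letters beginning at positions -110 and -47 from the start. Mcm5 lies at chr8:75109259-75109508 on the plus strand, with 1 E2F match at -149, read on the other strand. CCAAT matches in these 2 genes are left in lower case.
Mcm6: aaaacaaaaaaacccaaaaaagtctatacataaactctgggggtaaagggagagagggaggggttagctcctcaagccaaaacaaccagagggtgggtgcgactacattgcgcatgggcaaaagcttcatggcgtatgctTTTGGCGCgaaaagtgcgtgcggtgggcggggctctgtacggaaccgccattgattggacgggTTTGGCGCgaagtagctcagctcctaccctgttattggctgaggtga
Mcm5: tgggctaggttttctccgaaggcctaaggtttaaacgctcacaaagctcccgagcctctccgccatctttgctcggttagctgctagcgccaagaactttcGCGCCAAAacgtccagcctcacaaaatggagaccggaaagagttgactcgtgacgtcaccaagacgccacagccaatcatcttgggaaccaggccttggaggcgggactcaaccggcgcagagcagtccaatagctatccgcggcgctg

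The mitosis genes show a different layout. Bub1b lies at chr2:118597961-118598210 on the plus strand, Mki67 at chr7:135716380-135716629 on the minus strand and Kif11 at chr19:37376132-37376381 on the plus strand. Kif11 has CCAAT at -45 followed by CHR at -19, both read on the other strand. Mki67 has 3 CCAAT matches followed by 2 CHR matches, while in Bub1b the CHR match at -188 comes before the CCAAT match at -113. Bub1b also has a CHR match at 41, after the start and outside the bases shown.
Bub1b: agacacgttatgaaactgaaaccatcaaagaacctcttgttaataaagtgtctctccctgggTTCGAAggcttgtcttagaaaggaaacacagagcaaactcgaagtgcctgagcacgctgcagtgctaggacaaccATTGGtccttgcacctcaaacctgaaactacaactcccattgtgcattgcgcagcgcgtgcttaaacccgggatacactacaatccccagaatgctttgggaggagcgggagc
Mki67: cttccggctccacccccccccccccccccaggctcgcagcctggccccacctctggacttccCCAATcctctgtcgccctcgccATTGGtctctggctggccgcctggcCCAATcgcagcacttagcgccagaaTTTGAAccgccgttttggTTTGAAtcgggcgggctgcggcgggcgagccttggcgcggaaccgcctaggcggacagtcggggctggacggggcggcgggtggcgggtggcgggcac
Kif11: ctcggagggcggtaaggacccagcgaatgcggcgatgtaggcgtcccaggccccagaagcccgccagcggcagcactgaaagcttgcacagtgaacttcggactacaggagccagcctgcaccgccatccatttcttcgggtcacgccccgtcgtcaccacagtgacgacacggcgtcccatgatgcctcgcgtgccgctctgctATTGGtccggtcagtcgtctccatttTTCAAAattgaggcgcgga

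**Figure D1:**
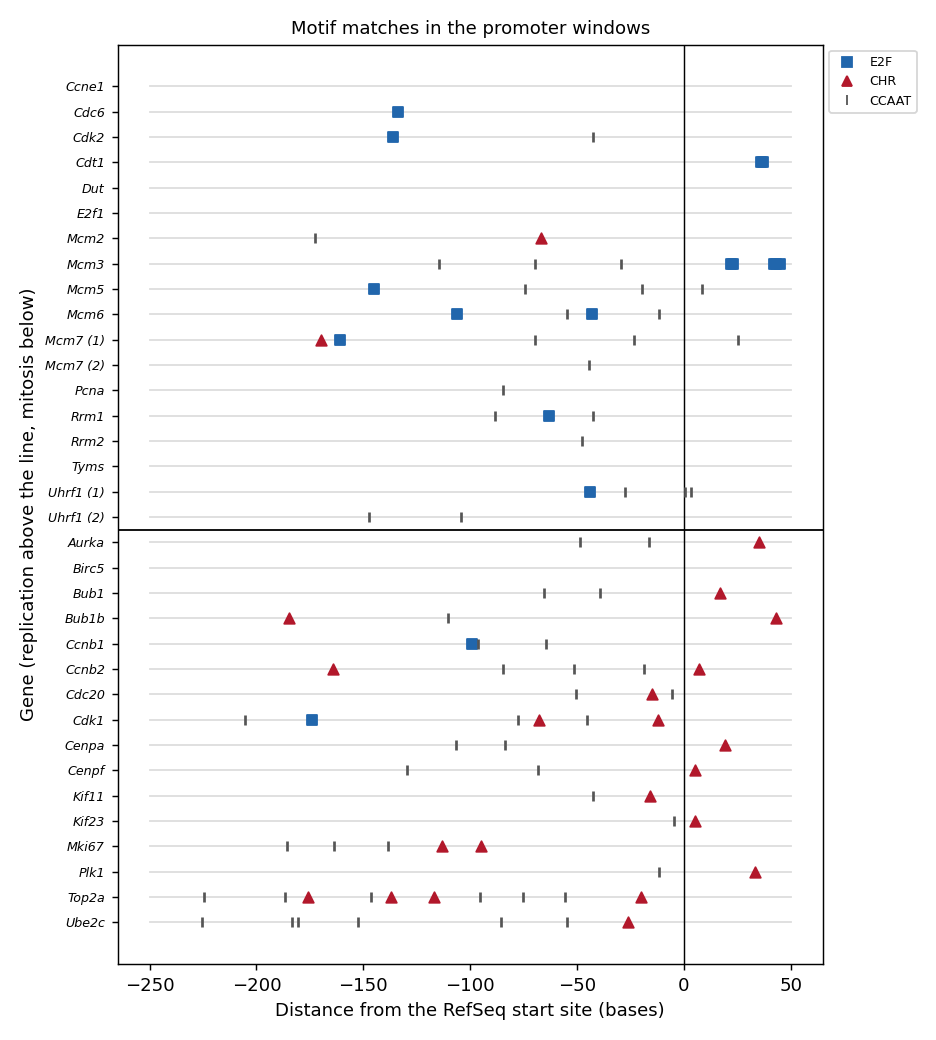
Positions of E2F (squares), CHR (triangles) and CCAAT (ticks) letters in the RefSeq promoter windows of the members, with distance from the start in bases on the horizontal axis and genes on the vertical axis. A number in brackets marks the windows of a gene with 2 starts. Squares lie mainly among the 16 replication genes above the line, and triangles among the 16 mitosis genes below it.

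Library totals ran from 28514263 to 58594569 counts, and CPM below are counts scaled to library size with TMM factors. Epithelial markers were high and even, with list means between 8.60 and 9.08 log2 CPM, and B cell and T cell markers were low, with list means under 1 log2 CPM in all 21 libraries. The mean of the small intestine and Paneth cell list was above 2.5 log2 CPM in 6 libraries (0% replicate 5, 0.5% replicates 1 and 4, 1.0% replicate 1 and 2.5% replicates 1 and 2) and at most 1.42 in the other 15. The group means below are also given without these 6 libraries. So are log2 changes at 2.5% that moved by over 1.5 times, for members shown with their library values. In that setting only replicates 3 to 5 remain at 2.5%, and 0% replicate 5, the highest control in mitosis genes, is left out. A fit with the small intestine mean as a covariate, added after seeing the data, kept all 21 libraries. There 18 of 19 replication and 18 of 21 mitosis genes had a log2 change above 0 at 2.5%, as in the reported fit.

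Compared per kilobase of exon, on the CPM scale, the kinase Plk1 had the highest level of the mitosis genes, at a mean of 31.5 CPM per kilobase, and the kinesin Kif20a the lowest, at 0.204. Among replication genes the ribonucleotide reductase subunit Rrm2 was highest at 11.1 and cyclin E2 (Ccne2) lowest at 0.348. The proliferation marker Mki67 stood at 14.2, the sliding clamp Pcna at 10.5, Ccnd2 at 17.8 and Ccnd1 at 5.12. Because how strand was handled in counting is not stated, counts of genes whose exons overlap a gene on the other strand are uncertain. Among the genes described here this share of the exon length was 67.3% for Gins2, 29.3% for Kif20a, 23.4% for Ccnd1, 22.8% for Ube2c, 17.4% for Ccne2, 12.5% for Ccna2 and 8.7% for Mcm7.

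**Figure D2:**
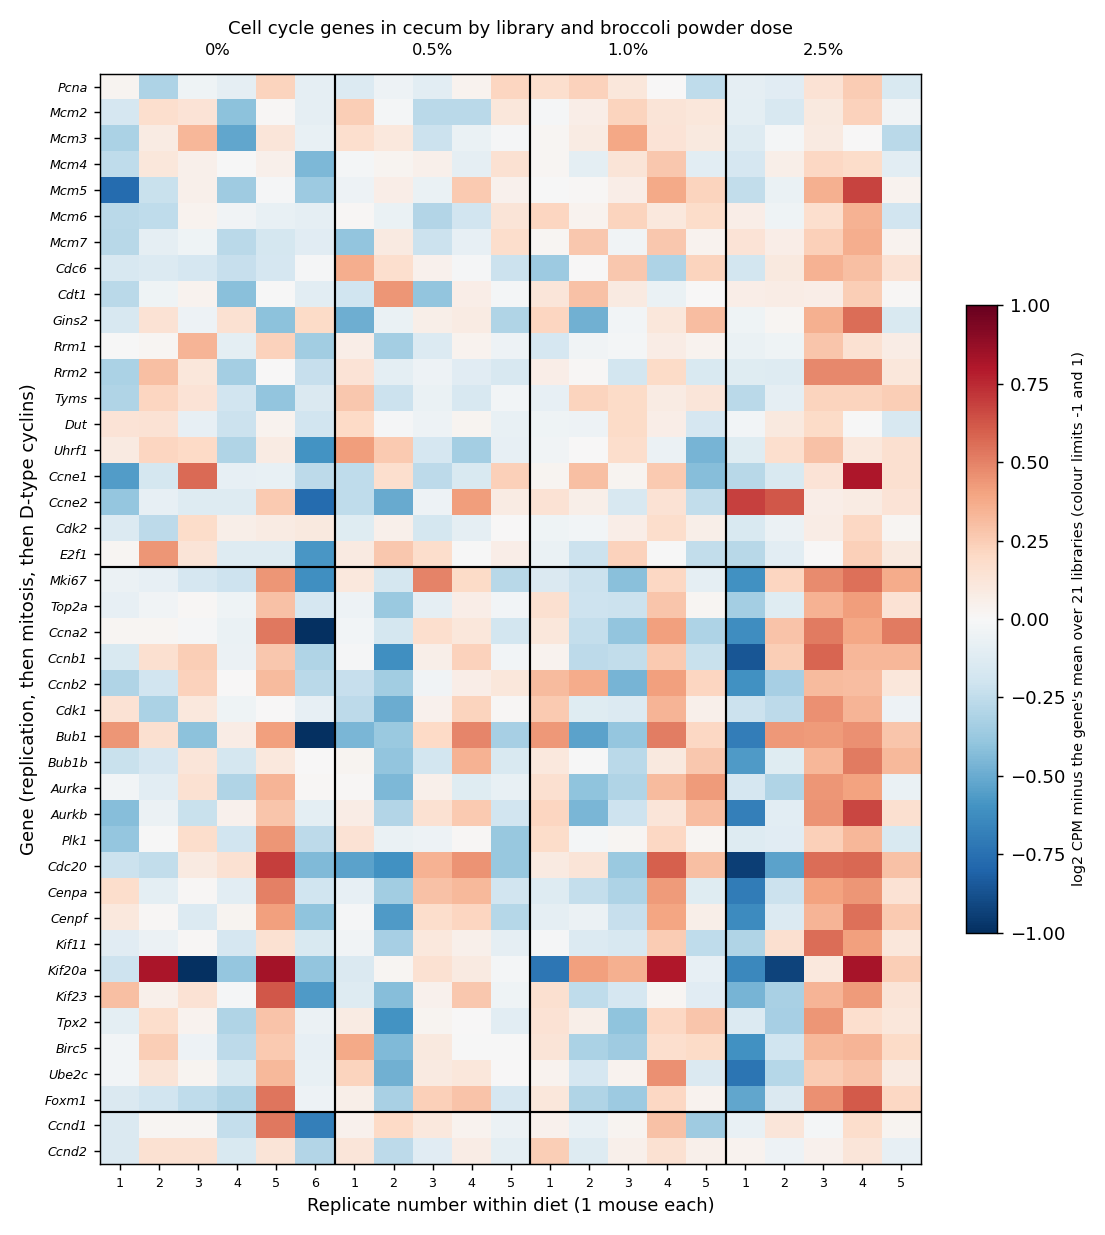
Level of each gene (rows) in each of the 21 libraries (columns, by diet and replicate) as log2 CPM minus the gene's own mean, from blue (lower) to red (higher). The 21 mitosis rows change colour together within a column, from blue in 2.5% replicate 1 to red in 2.5% replicates 3 and 4, while the 19 replication rows are more mixed.

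The first question is whether replication genes differed with broccoli powder. None of the 19 replication genes, none of the 21 mitosis genes and neither D-type cyclin was called at 2.5% against 0% by edgeR's quasi-likelihood test with Benjamini-Hochberg adjustment (adjusted p under 0.05), where 0.109% of all genes tested were called. At this dose 18 of 19 replication genes had an estimate above 0, with a median log2 change of 0.18, against 46.9% of all genes and a median of -0.01. Unadjusted p under 0.05 was reached by 4 of the 19, against 8.43% of all genes tested, and DESeq2 and limma voom also called none. In whole tissue, fewer cells of a type and less RNA per cell cannot be told apart.

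Mcm7, a subunit of the replicative helicase (ENSMUSG00000029730, GRCm38 chromosome 5, 138164583 to 138172422, minus strand), stood apart most evenly. Its controls ran from 6.29 to 7.42 CPM with a median of 6.89, and the 2.5% libraries read 8.40, 7.99, 8.99, 9.83 and 7.81 CPM. The 1.0% libraries read 7.72, 9.22, 7.46, 9.22 and 7.84 CPM, and the 0.5% libraries 5.80, 8.13, 6.56, 7.22 and 8.60 CPM. Every library at 2.5% and at 1.0% lay above every control, while the 0.5% libraries overlapped the controls. All libraries above all controls was found in 0.454% of genes tested at 2.5% and in 0.134% at 1.0%, and of the 42 genes in Mcm7 alone at either dose. The log2 change was 0.33 ± 0.11 (SE, adjusted p = 0.368) at 2.5%, 0.28 ± 0.11 (adjusted p = 0.999) at 1.0% and 0.09 ± 0.11 (adjusted p = 0.864) at 0.5%, so the gene did not pass in any comparison. Over all other settings the estimate at 2.5% stayed between 0.28 and 0.37.

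Other subunits of the same ring gave unequal estimates. Mcm5 (ENSMUSG00000005410, chromosome 8, 75109569 to 75128439, plus strand) read 5.45, 6.19, 8.28, 10.3 and 6.65 CPM at 2.5%, against 3.79 to 6.69 CPM (median 5.31) in controls. Only replicates 3 and 4 lay above every control, and the log2 change was 0.44 ± 0.15 (adjusted p = 0.415). It was 0.29 without 2.5% replicate 4, 0.29 with the immediate early covariate described below, and 0.68 (adjusted p = 0.0665) without the 6 libraries. Mcm5 means were 5.43 ± 1.06 (SD, n = 6), 6.72 ± 0.62, 7.14 ± 0.84 and 7.38 ± 1.95 CPM (n = 5 each) from 0% to 2.5%. Mcm6 read 11.5, 10.7, 12.3, 13.9 and 9.60 CPM at 2.5%, against 9.06 to 11.2 CPM (median 10.3) in controls, and its 1.0% mean of 12.2 CPM was above the 2.5% mean of 11.6 CPM. Its log2 change was 0.19 ± 0.10 (adjusted p = 0.620) at 2.5%, and 0.12 without 2.5% replicate 4. Mcm2, Mcm3 and Mcm4 had log2 changes of 0.06 ± 0.11, -0.03 ± 0.12 and 0.11 ± 0.10.

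Of the loading factors, Cdc6 read 4.54, 5.53, 6.56, 6.36 and 5.72 CPM at 2.5%, against 4.40 to 5.12 CPM (median 4.60) in controls. In 4 of 5 libraries it lay above every control, and replicate 1 lay within the control range. The log2 change was 0.30 ± 0.13 (adjusted p = 0.550). Cdt1 also lay above every control in 4 of 5 libraries at 2.5%, with a log2 change of 0.22 ± 0.13 (adjusted p = 0.651). Gins2, a subunit of the active helicase, had a log2 change of 0.18 ± 0.18.

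For the supply of DNA building blocks, Rrm2 read 27.9, 27.9, 42.4, 42.4 and 33.0 CPM at 2.5%, against 24.1 to 37.4 CPM (median 28.3) in controls. Replicates 3 and 4 lay above the controls and the other 3 within them, and the log2 change was 0.25 ± 0.12 (adjusted p = 0.607), or 0.44 without the 6 libraries and 0.15 with the immediate early covariate. Its partner Rrm1 had a log2 change of 0.04 ± 0.10, thymidylate synthase Tyms 0.18 ± 0.12 and the dUTPase Dut 0.05 ± 0.09. Pcna, the clamp that holds polymerases on DNA, read 23.5, 23.2, 27.8, 29.9 and 22.6 CPM at 2.5%, against 20.2 to 29.2 CPM (median 23.9) in controls. Only replicate 4 lay above the controls, and the log2 change was 0.06 ± 0.10 (adjusted p = 0.897). It was -0.00038 when only library totals were used for scaling, -0.0071 without 2.5% replicate 4 and 0.19 without the 6 libraries. Uhrf1, which takes part in copying DNA methylation marks onto new strands, had a log2 change of 0.15 ± 0.15.

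Among S phase starters, Ccne2 read 1.90, 1.82, 1.24, 1.25 and 1.30 CPM at 2.5%, against 0.694 to 1.42 CPM (median 1.08) in controls. Here replicates 1 and 2, not 3 and 4, were the high ones, and the log2 change of 0.51 ± 0.21 (adjusted p = 0.517) was the largest of the 42 genes. Ccne1 had a log2 change of 0.24 ± 0.22, and Cdk2 and E2f1 each 0.01.

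**Figure D3:**
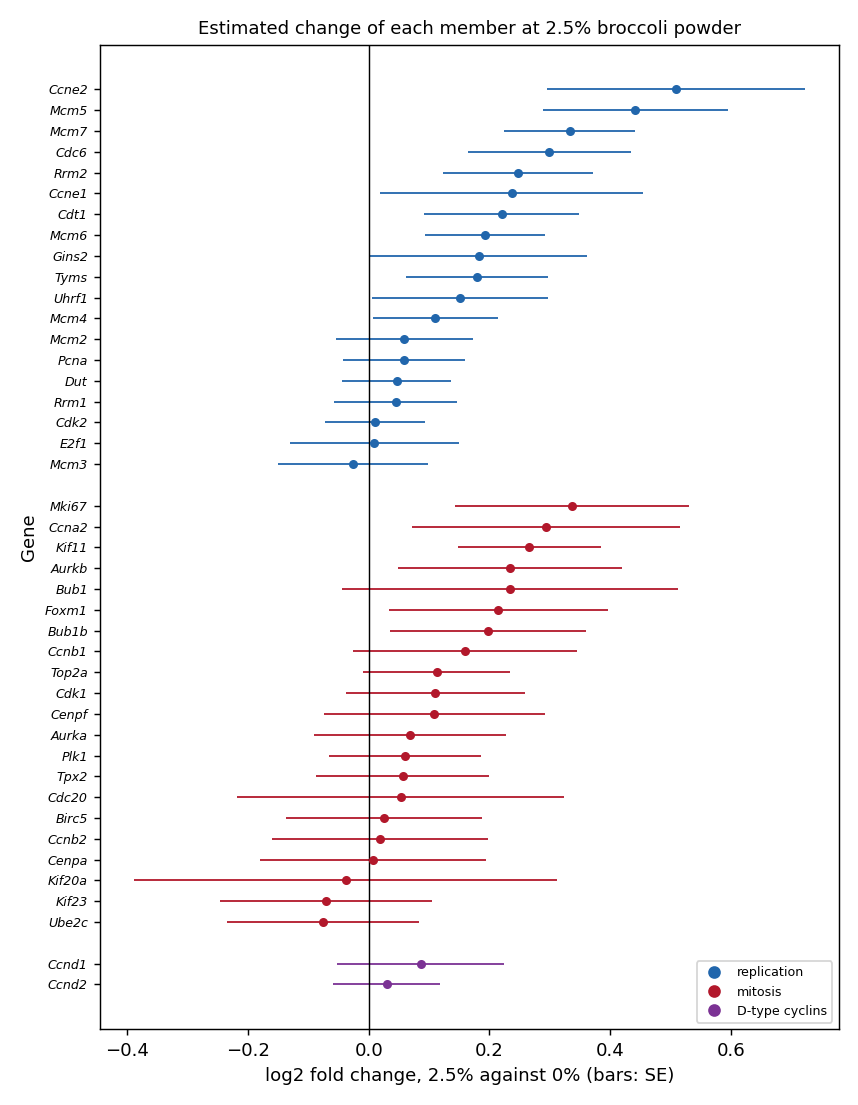
Estimated log2 fold change at 2.5% against 0% (horizontal axis) with its SE for each gene (vertical axis), sorted within the groups. Of the 19 replication genes 18 lie right of 0, as do 18 of the 21 mitosis genes, and no gene passed the adjusted test.

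Across the lower doses the replication genes had estimates above 0 in 16 of 19 cases at 1.0% (median 0.12) and in 16 of 19 at 0.5% (median 0.04). Of all genes 49.4% were above 0 at 1.0% and 49.2% at 0.5%. None of the 42 genes was called there, with 0% of all genes called at 1.0% and 0.00639% at 0.5%, and unadjusted p under 0.05 was reached by 3 of the 42 at 1.0%, against 3.18% of all genes, and by none at 0.5%, against 7.14% of all genes. With library totals in place of TMM scaling the replication count at 0.5% was 7, where 25.1% of all genes were above 0. Without 0.5% replicate 1 it was 10. The change in log2 level for each added 1% of the powder was above 0 in 17 of 19 replication genes and in 18 of 21 mitosis genes, called in none of the 42, with 0.147% of all genes called, and the test of any difference among the 4 diets called none of the 42, with 0.0256% called. Unadjusted p under 0.05 was reached for the slope by 4 replication genes and 1 mitosis gene, against 7.32% of all genes, and for any difference by 3 replication genes and no mitosis gene, against 6.41%. Mcm7 had a slope of 0.13 ± 0.04 per 1% (adjusted p = 0.392). These comparisons share the 6 control libraries.

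The mean log2 CPM over the 19 replication genes was 3.11 ± 0.13 (SD, n = 6) at 0%, 3.17 ± 0.06 at 0.5%, 3.24 ± 0.06 at 1.0% and 3.28 ± 0.15 at 2.5% (n = 5 each). The step from 0% to 2.5% was 0.18, or 0.27 once the 6 libraries with high small intestine markers were left out and 0.095 with the median over genes in place of the mean, and it stayed between 0.13 and 0.21 when any 1 of the 11 libraries was left out. At 2.5%, replicate 4 was at 3.48 and replicate 3 at 3.40, above the highest control (3.29), and replicates 1, 2 and 5 were at 3.13, 3.21 and 3.21, inside the control range.

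**Figure D4:**
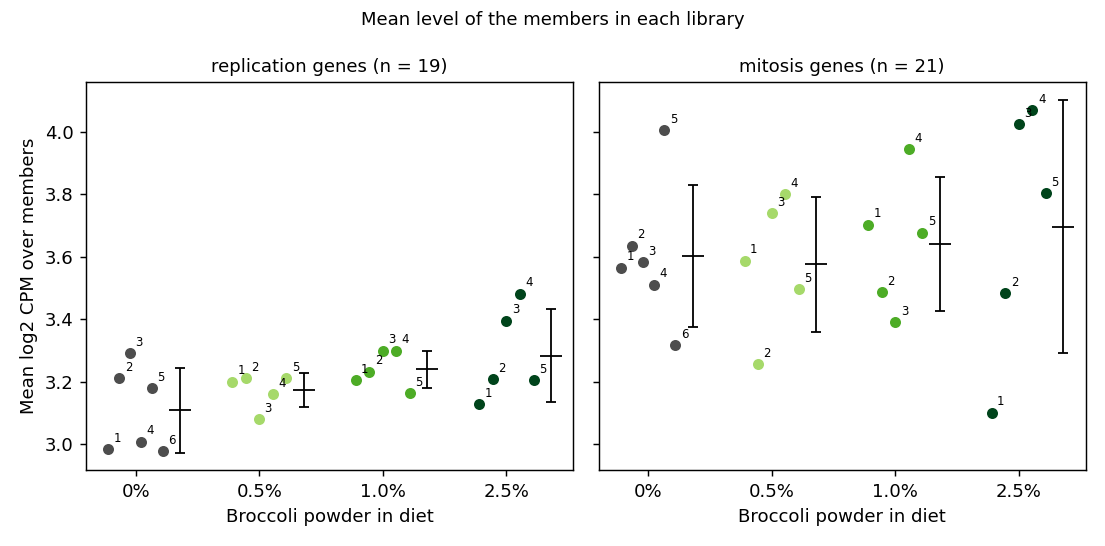
Mean log2 CPM (vertical axis) over the 19 replication genes (left) and the 21 mitosis genes (right) in each library, by broccoli powder dose, with numbers giving the replicate and black bars the mean and SD. Replication means run from 3.11 at 0% to 3.28 at 2.5%, and mitosis means spread within every diet, most at 2.5%.

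The mitosis genes had smaller median differences and a wider spread between mice. At 2.5%, 18 of 21 had an estimate above 0, with a median log2 change of 0.11, and 1 reached an unadjusted p under 0.05. At 1.0% it was 13 of 21 (median 0.01), or 7 of 21 without 1.0% replicate 4 and 8 of 21 with the epithelium mean as a covariate. At 0.5% it was 6 of 21 (median -0.05). Of all genes 46.9% were above 0 at 2.5%, 49.4% at 1.0% and 49.2% at 0.5%. The balance at 0.5% turned to 15 of 21 without 0% replicate 5 and 13 of 21 without 0.5% replicate 2. It was 12 of 21 with smooth muscle and B cell means as covariates. Library totals gave 1 of 21, where 25.1% of all genes were above 0. The count at 2.5% was 11 of 21 without 2.5% replicate 3 and also 11 of 21 without 2.5% replicate 4, and it was 21 of 21 without 2.5% replicate 1. Their mean was 3.60 ± 0.23 log2 CPM (SD, n = 6) at 0%, 3.58 ± 0.22 at 0.5%, 3.64 ± 0.21 at 1.0% and 3.70 ± 0.40 at 2.5% (n = 5 each). The difference of 0.09 between 2.5% and 0% was under 1 SD of either group. It was 0.00015 without 2.5% replicate 4, 0.012 without 2.5% replicate 3 and 0.24 without 2.5% replicate 1. It was 0.44 once the 6 libraries with high small intestine markers were left out. Those 6 include the highest control mean (0% replicate 5, 4.01) and the lowest means at 2.5% (replicates 1 and 2, 3.10 and 3.48).

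Mki67, whose protein coats mitotic chromosomes and marks dividing cells (ENSMUSG00000031004, chromosome 7, 135689784 to 135716361, minus strand), read 91.6, 162, 193, 204 and 180 CPM at 2.5%. Controls ran from 90.9 to 189 CPM with a median of 128 CPM, the 0.5% libraries read 150, 124, 196, 159 and 115 CPM, and the 1.0% libraries 126, 120, 104, 161 and 131 CPM. All 4 diets overlapped, with 1 control, replicate 5, at 189 CPM and 1 library at 2.5%, replicate 1, near the lowest control. The log2 change at 2.5% was 0.34 ± 0.19 (adjusted p = 0.651). It was 0.68 ± 0.16 (adjusted p = 0.0685) without the 6 libraries and 0.13 ± 0.17 with the immediate early covariate.

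Kif11, the motor that pushes spindle poles apart (ENSMUSG00000012443, chromosome 19, 37376403 to 37421859, plus strand), had the lowest p of the mitosis genes. It read 17.3, 23.7, 31.4, 28.2 and 22.9 CPM at 2.5%, against 18.9 to 23.6 CPM (median 20.1) in controls, 16.9 to 22.9 CPM at 0.5% and 17.8 to 25.3 CPM at 1.0%. In 3 of 5 libraries at 2.5% it lay above every control, and in replicate 1 below every control. The log2 change was 0.27 ± 0.12 (adjusted p = 0.546) at 2.5% and -0.0038 and -0.0036 at 1.0% and 0.5%. At 2.5% it was 0.16 without 2.5% replicate 3, 0.15 with the immediate early covariate and 0.46 (adjusted p = 0.0963) without the 6 libraries.

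Cyclin A2 (Ccna2), which acts in S phase and G2, read 18.9, 35.3, 41.5, 37.8 and 41.5 CPM at 2.5%, against 13.98 to 41.8 CPM (median 29.1) in controls. The controls alone spanned the whole range of the 21 libraries, and the log2 change was 0.29 ± 0.22 (adjusted p = 0.738), or 0.15 without 0% replicate 6, 0.45 without 2.5% replicate 1, 0.64 without the 6 libraries and 0.14 with the immediate early covariate. The kinase Aurkb, of the complex that corrects chromosome attachment, read 6.09, 9.12, 13.4, 15.5 and 10.9 CPM, against 7.28 to 11.8 CPM (median 9.29) in controls, with a log2 change of 0.23 ± 0.19 (adjusted p = 0.748). The checkpoint protein gene Bub1b read 3.84, 5.24, 7.14, 8.17 and 7.11 CPM, against 4.86 to 6.20 CPM (median 5.37), with a log2 change of 0.20 ± 0.16 (adjusted p = 0.754). Foxm1, a transcription factor for many of these genes, read 8.76, 11.3, 17.2, 19.1 and 14.5 CPM, against 10.2 to 18.1 CPM (median 11.2), with a log2 change of 0.21 ± 0.18 (adjusted p = 0.761). In these 3 genes the replicates at 2.5% kept the same pattern, with replicate 1 below every control and replicates 3 and 4 high. With the immediate early covariate the signs turned, to -0.07 for Aurkb, -0.01 for Bub1b and -0.04 for Foxm1. Without 2.5% replicate 4 the changes were 0.08, 0.09 and 0.08, without 2.5% replicate 1 they were 0.39, 0.33 and 0.35, and without the 6 libraries 0.58, 0.48 and 0.62. Without those 6 libraries the slope of Foxm1 was called (adjusted p = 0.0449), the one call of a member in any setting run. That setting drops 0% replicate 5, the highest Foxm1 control at 18.1 CPM, and the lowest Foxm1 libraries at 2.5%, replicates 1 and 2.

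The other mitosis genes were within 1 SE of 0 at 2.5%. Topoisomerase Top2a, Cdk1, cyclin B1 (Ccnb1), Cenpf and the checkpoint kinase Bub1 had log2 changes of 0.11, 0.11, 0.16, 0.11 and 0.23. The kinases Aurka and Plk1, the spindle factor Tpx2, the anaphase activator Cdc20, the survivin gene Birc5, cyclin B2 (Ccnb2) and the centromeric histone gene Cenpa lay between 0.01 and 0.07, and Kif20a, Kif23 and Ube2c at -0.04, -0.07 and -0.08. Kif20a had the largest spread within diets, an SD of 0.574 on the log2 scale, at a mean of 0.885 CPM.

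Mitosis genes varied together from mouse to mouse. Over the 21 libraries the median Pearson r of log2 CPM between mitosis genes was 0.668 over 210 pairs, all above 0, against 0.323 over 171 pairs of replication genes and 0.232 over 399 pairs of 1 gene from each group. With each diet centred on its own mean these medians were 0.713, 0.271 and 0.214, and without the libraries farthest from the median mitosis level (2.5% replicates 1 and 4) they were 0.598, 0.267 and 0.127. These are descriptions over libraries whose genes share depth and cell content. Within diets the median SD was 0.321 on the log2 scale for mitosis genes and 0.204 for replication genes, against 0.207 for all genes tested. Of the replication genes, Rrm2 and Rrm1 tracked the mitosis genes most closely, with median r of 0.548 and 0.542, and Cdt1 least, with -0.08.

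The library 2.5% replicate 1 was below the gene's own mean in 21 of 21 mitosis genes and lowest of all 21 libraries in 10 of them, with a median of 0.658 times that mean. Replicates 3 and 4 at 2.5% were above the mean in 21 of 21, with a median of 1.34 times the mean in each. At 0%, replicate 5 was also above in 21 of 21 (1.26 times), and 0.5% replicate 2 was above in 1 of 21 (0.775 times). Replication genes departed less in 2.5% replicate 1, with 4 of 19 above their mean and a median of 0.922 times the mean.

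Markers of other cells and states differed between the same libraries. At 2.5%, replicates 1 to 5, the smooth muscle list stood at 8.79, 8.21, 7.91, 7.47 and 8.24 log2 CPM, the immediate early list at 5.28, 5.51, 6.22, 6.63 and 6.37, the epithelium list at 8.69, 8.65, 8.89, 9.08 and 8.83, and the mitosis genes at 3.10, 3.48, 4.02, 4.07 and 3.80. Within this diet replicate 1 was highest in smooth muscle and lowest in immediate early and mitosis genes, and replicate 4 the reverse. Among controls, replicate 6, the lowest in mitosis genes (3.32), had the highest smooth muscle mean (8.82), but its immediate early mean of 5.98 was also the highest. Of the 10 smooth muscle markers 9 passed the count filter and Synm was at 0 in all libraries, and their summed level ran from 2796 to 5275 CPM at 0% and from 2240 to 5294 CPM at 2.5%. Germinal centre B cells are among the other dividing cells that a cecum could hold. Their list had 8 of 8 markers past the filter and summed to 43.3 to 59.4 CPM at 0% and 46.7 to 55.5 CPM at 2.5%. The B cell list summed to less, 19.7 to 28.5 CPM at 0% and 20.6 to 30.6 CPM at 2.5%. The germinal centre sum is therefore not read as an amount of these cells, whose presence was not tested. The part of these cells and states in the mitosis pattern was not tested. As values only, with the immediate early mean as a covariate, chosen after seeing the data, 4 of 21 mitosis genes and 15 of 19 replication genes had an estimate above 0 at 2.5%, and with smooth muscle and B cell means it was 15 of 21 and 16 of 19.

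**Figure D5:**
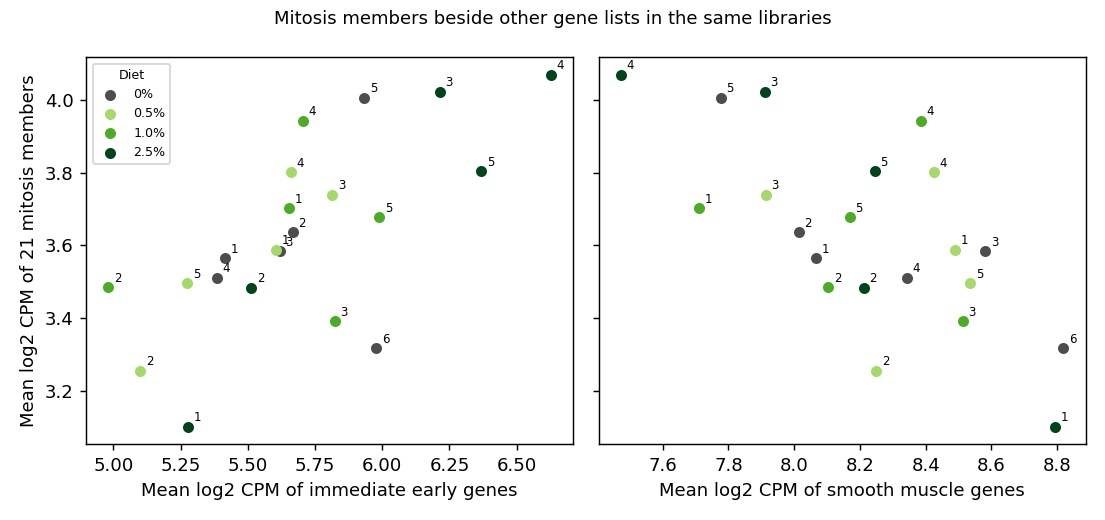
Mean log2 CPM of the 21 mitosis genes (vertical axis) against that of the immediate early genes (left) and the smooth muscle genes (right) in the same 21 libraries, coloured by diet, with numbers giving the replicate. The library 2.5% replicate 1 lies at the bottom of both panels at 3.10, and 2.5% replicate 4 at the top at 4.07.

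The D-type cyclins carry growth signals into the cycle before S phase. Ccnd1 read 22.7, 25.9, 23.5, 26.9 and 24.2 CPM at 2.5%, inside the control range of 14.8 to 34.4 CPM (median 22.8), and the log2 change was 0.09 ± 0.14 (adjusted p = 0.889). Ccnd2 read 171, 161, 172, 182 and 157 CPM, inside the control range of 136 to 186 CPM (median 167), and the log2 change was 0.03 ± 0.09 (adjusted p = 0.944). The 2.5% libraries, like those at 0.5% and 1.0%, were closer together than the controls in both genes. Without 0% replicate 6, the lowest control in each, the log2 changes at 2.5% were -0.01 and -0.02. They were 0.23 and 0.06 without 0% replicate 5, and 0.25 and 0.07 without the 6 libraries with high small intestine markers.

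Further genes of the cell cycle were taken from 3 lists that hold no member and were chosen with earlier results of these data known. Of 43 other replication genes 42 were tested and none was called at 2.5%, with 31 above 0 and a median log2 change of 0.10. Of 68 other mitosis genes 66 were tested and none was called, with 55 above 0 and a median of 0.11. Of 40 regulators 39 were tested and 1 was called, with 28 above 0 and a median of 0.08. Among all genes tested 0.109% were called and 46.9% were above 0.

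The called regulator was Wee1, the kinase that holds Cdk1 back before mitosis. It read 23.6, 26.9, 30.5, 29.7 and 22.6 CPM at 2.5%, against 17.01 to 22.4 CPM (median 18.5) in controls. Every library at 2.5% lay above every control, as in 0.454% of all genes tested. Means were 19.04, 20.9, 20.4 and 26.6 CPM from 0% to 2.5%, and 2 of 5 libraries at 0.5% and 1 of 5 at 1.0% lay above every control. The log2 change was 0.48 ± 0.10 (adjusted p = 0.0479) at 2.5% and the slope 0.19 ± 0.04 per 1% (adjusted p = 0.0362). The call at 2.5% sat at the threshold. It was lost in 18 of 21 fits that left out 1 library and in 6 of 12 other settings. Adjusted p was highest, 0.272, without 2.5% replicate 3, and was 0.259 without 2.5% replicate 4. It was 0.0907 with limma voom and 0.166 with the immediate early covariate, while DESeq2 gave 0.00283. The log2 change at 2.5% lay between 0.43 and 0.54 throughout. The slope call was kept in some of these fits and lost in others. Its adjusted p was 0.0444 with library totals, 0.0672 with limma voom and 0.257 without 2.5% replicate 3.

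None of the other genes named from these lists passed. The origin factor Orc4 read 28.4, 32.4, 27.9, 25.3 and 31.6 CPM at 2.5%, with a log2 change of 0.19 ± 0.07 (adjusted p = 0.450). The clamp loader subunit Rfc2 had a log2 change of 0.54 ± 0.21 (adjusted p = 0.487), with 2.5% replicate 4 at 65.6 CPM, while the other 4 libraries of the diet lay between 22.6 and 30.0 CPM. The centromere genes Cenpn and Cenpi had log2 changes of 0.38 ± 0.14 and 0.42 ± 0.20 (adjusted p = 0.483 and 0.564), and Btg1, which slows proliferation, 0.31 ± 0.09 (adjusted p = 0.311). In the other direction, Orc5, Gins4, Cks1b, Pttg1, cyclin D3 (Ccnd3) and the phosphatase Cdc25a, which acts against Wee1, had log2 changes of -0.22, -0.11, -0.23, -0.15, -0.20 and -0.13, with adjusted p from 0.608 to 0.830.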

How the data were processed

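Messenger RNA of the cecum was sequenced from 21 libraries with a kit that marks strand, per the labels' protocols. The authors deposited raw counts per gene, mapped to mm10 per the submitters' processing notes. For the aligner, counting tool, annotation release and strand setting, nothing is given in the sources used here. Symbols, positions and exon lengths were taken from GENCODE M21 on GRCm38, in which 25268 of 25361 identifiers matched.

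The tests ran in edgeR 4.0.16 under R 4.3.3. After filterByExpr by diet and TMM scaling, all 21 libraries shared 1 robust quasi-likelihood model, tested two-sided, with Benjamini-Hochberg adjustment over 15652 genes and a threshold of 0.05. Every adjusted p is from this test unless another tool is named. The slope used the dose in percent. Log2 CPM used a prior count of 2. The pipeline was tested on simulated data. Replicate numbers follow accession order and pair nothing. Nothing in the labels says that libraries of a diet came from separate cages. The p-values set diet differences against the spread between these mice and treat the mice as independent. Cages shared within a diet would break that and could make the p-values too small.

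The 42 genes and all lists were chosen with earlier results of these data known. Named were Mki67, Pcna, the D-type cyclins, the 6 replication and 6 mitosis genes with the lowest p at 2.5%, the highest, lowest and most variable genes, and in the 3 further lists every called gene and the 2 lowest p in each direction. The remaining members are named outside this rule, mostly by their log2 change. Promoters were printed for named genes with motif matches, except where the 250 bases overlapped an annotated exon (Cdc6 and Mcm7).

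Alternatives were other scalings (RLE, library totals), DESeq2 1.42.0, limma voom 3.58.1, no filter, only the diets compared, marker means as covariates, dose as a rank, another prior count, medians over genes, and leaving out libraries. The immediate early and small intestine covariates were added after seeing the data.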

Additional observations from a re-analysis of the deposited data

Results flagged for a closer look

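In 72 groups of 5 or 6 libraries (15 named members and Wee1 in CPM, and the 2 group means in log2 CPM, each by diet), 3 had a library farther from its neighbour than Dixon's criterion allows, and chance alone gives about 1 in 20 such groups. Ccna2 was at 18.9 CPM in 2.5% replicate 1, where the next lowest library of the diet was at 35.3 CPM. Foxm1 was at 18.1 CPM in 0% replicate 5, where the next highest control was at 12.1 CPM. Wee1 was at 24.3 CPM in 1.0% replicate 3, where the next highest library of the diet was at 20.4 CPM.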

How the results depend on the processing

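No member was called at any single dose, or for any difference among the diets, under any alternative run. With the 6 libraries of high small intestine markers left out, the slope called 1 member, Foxm1 (0.24 per 1%, adjusted p = 0.0449), and no other alternative called a member. Those 6 hold the highest Foxm1 control and the lowest Foxm1 libraries at 2.5%. Signs turned in 6 of the 15 members named by rule. With library totals the log2 change at 2.5% was -0.00038 for Pcna and -0.024 for Ccnd2, and 13 of 19 replication and 14 of 21 mitosis genes were above 0 at 2.5%, against 32.9% of all genes. When each library was left out in turn, Pcna ranged from -0.0071 (without 2.5% replicate 4) to 0.117 at 2.5% and from -0.0031 to 0.040 in slope. Ccnd1 ranged from -0.013 (without 0% replicate 6) to 0.233 at 2.5% and from -0.0068 to 0.062 in slope, and Ccnd2 from -0.021 (without 0% replicate 6) to 0.065 at 2.5%. The immediate early covariate, added after seeing the data, gave -0.011 for Ccnd2, -0.067 for Aurkb, -0.014 for Bub1b and -0.045 for Foxm1 at 2.5%, with slopes of -0.040 for Aurkb, -0.0071 for Bub1b and -0.034 for Foxm1. The cause was not tested. The replication difference of 0.18 was 0.095 with the median over genes in place of the mean. The numbers of genes called among all genes at 2.5% were 17 in the reported fit, 84 with DESeq2, 7 with limma voom, 7 with library totals, 0 with only the diets compared and 121 without the 6 libraries, and for the slope 23, 60 with DESeq2, 9 with limma voom, 0 with dose as a rank and 101 without the 6 libraries. No paired analysis was possible because the replicate numbers follow accession order.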
